A study of Canis lupus familiaris with 7 samples.

Results

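Small leucine-rich proteoglycans are a family of secreted matrix proteins, and 8 of their genes were followed here across canine osteosarcomas: DCN, BGN, ASPN, LUM, FMOD, PRELP, OMD and OGN. Members were all non-control probes whose gene name in the array files equals one of these symbols, which gave 12 of the 43603 probes, for 8 of the 11063 named genes with a usable probe. All 12 passed the filter on dim probes (well above background on at least 3 arrays), as did 32311 probes overall. The members were chosen by a reading of these data: OMD intensity had been seen to differ between wild-type tumors 1 and 2, a pair of otherwise similar arrays. That gap is therefore given below as a description, without a test.

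RNA of 7 primary osteosarcomas of dogs was measured, 1 array for each tumor, to find expression that goes with loss of DLG2, a scaffold protein gene. The 4 tumors labelled DLG2 deleted came from a Mixed Breed (German Shepherd/Collie/X) aged 8 years, a Rottweiler X aged 9, a Greyhound aged 6 and a Great Pyrenees aged 7, with the sex labels MC, FS, MC and FS. The 3 labelled DLG2 wild type came from a Boxer aged 12, a Mixed Breed (Labrador Retriever/X) aged 10 and a Bull Mastiff aged 8, with the labels FS, FS and MC. No treatment is given in the labels, and these are natural tumors that differ in breed, age and other genomic changes as well as in DLG2. At its 1 probe DLG2 itself had a log2 intensity of 10.4, 11.4, 10.5 and 10.8 in deleted tumors 1 to 4 and 10.9, 12.0 and 11.7 in wild-type tumors 1 to 3, so the groups overlapped (difference -0.77, SE 0.35, limma adjusted p = 0.711). Of the 5 bone-forming markers measured, RUNX2, ALPL and BGLAP were well above background in all 7 tumors, PHEX in 6 and MEPE in 5. The arrays of wild-type tumors 1 and 2 were the most alike (r = 0.987 over probes, against 0.935 to 0.966 for any other pair), and the group differences of the members were also computed with both averaged into 1 tumor.

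These proteins have a core of leucine-rich repeats that binds collagen fibrils, and most carry chondroitin, dermatan or keratan sulfate chains. Decorin (DCN), biglycan (BGN) and asporin (ASPN) form one class. Lumican (LUM), fibromodulin (FMOD), PRELP and osteoadherin (OMD) form another, and osteoglycin (OGN) belongs to a separate class. In bone they are known for setting the diameter of collagen fibrils, for holding growth factors such as TGF-beta in the matrix, and, for osteoadherin, for a close tie to mature osteoblasts.

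An array probe is a stretch of 60 bases, so each value below is the signal of that stretch. A probe of each gene is printed 5′ to 3′ on the transcript strand, the brightest one except for DCN and LUM, where the second probe is shown because it holds the match described next. In the first set, capitals mark a match to the repeat's core, spelled as codons in a reading frame without a stop: NTN, any 2 codons, AAC or AAT, any codon, NTN. Codons NTN encode leucine and similar residues, and AAC and AAT encode asparagine. Of the 12 member probes 5 held the match, or 41.7%, against 6.13% of all 43603 probes on the printed strand. On the opposite strand 2 member probes and 5.99% of all probes held it.
DCN: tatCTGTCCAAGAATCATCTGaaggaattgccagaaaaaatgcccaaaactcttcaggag
LUM: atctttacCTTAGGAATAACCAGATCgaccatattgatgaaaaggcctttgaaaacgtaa
FMOD: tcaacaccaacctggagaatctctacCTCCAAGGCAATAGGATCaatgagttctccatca
PRELP: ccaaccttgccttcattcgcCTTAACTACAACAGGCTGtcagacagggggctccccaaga

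The probes of the other 4 genes hold no such match on this strand. In OMD, capitals mark the codons GAA, GAG, GAC and GAT, which encode acidic residues. They were 6 of the 20 codons counted from the first base, and osteoadherin is known for an acidic stretch that binds mineral. In OGN and BGN, capitals mark a TAG that is the only stop of its frame. Each of these 3 probes also has another frame without a stop, and which frame is translated was not analysed here.
OMD: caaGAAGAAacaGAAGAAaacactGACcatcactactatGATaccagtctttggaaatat
ASPN: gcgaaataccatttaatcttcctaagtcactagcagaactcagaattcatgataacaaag
OGN: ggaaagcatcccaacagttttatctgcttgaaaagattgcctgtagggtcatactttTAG
BGN: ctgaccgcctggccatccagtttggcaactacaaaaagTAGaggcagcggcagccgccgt

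By the coordinates in the files (build canFam2), 7 of the 8 genes lie in 3 groups of neighbours. ASPN, OMD and OGN lie within 61.8 kb (the OMD probe at chr1:102000239-102000491, plus strand). DCN and LUM lie within 56.9 kb (chr15:34806150-34863001, minus strand), and FMOD and PRELP within 103 kb (chr38:3103830-3207159, FMOD on the minus and PRELP on the plus strand). BGN stands alone at chrX:124377656-124377715, plus strand. The OMD probe spans 253 bases of the genome and the brightest FMOD probe 4552, more than 60, so both sequences are split in the genome. Which exon or untranslated part each probe lies in was not analysed here.

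In the comparison of deleted with wild-type tumors, 0 of the 12 probes were called at an unadjusted p below 0.05 and a limma adjusted p below 0.1, and 0% of all kept probes were called. At an unadjusted p below 0.05, 3 member probes were higher in deleted tumors, both LUM probes and BGN, against 3.12% of all kept probes. The same 3 were the member probes on which all 4 deleted tumors lay above all 3 wild-type tumors, which 3.93% of kept probes did. On 0 member probes did all deleted tumors lie below, against 4.23% of kept probes. Of the 8 genes 6 had a higher mean in deleted tumors and 2, OMD and ASPN, a lower one. The median difference over the 8 genes (brightest probe of each) was 0.66 on the log2 scale, beside 0.014 over all genes. Their median range over the 7 tumors was 2.13, beside 0.80 over all genes. In bulk tumor RNA, fewer cells of a type and less RNA per cell cannot be told apart.

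**Figure D1:**
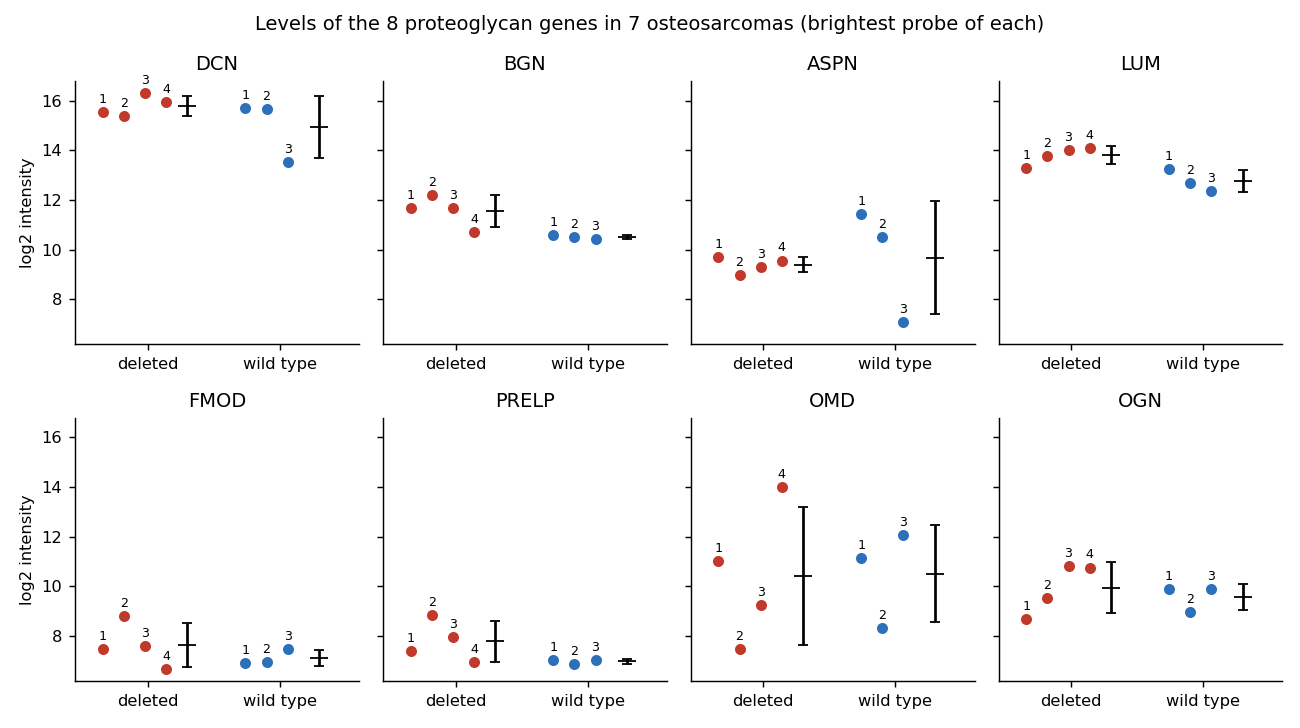
Log2 intensity (vertical axis) of the brightest probe of each gene in deleted (red) and wild-type (blue) tumors. Points are single tumors marked with their number, and the bars beside them are mean ± SD (n = 4 and n = 3). All 4 deleted tumors lie above all 3 wild-type tumors in LUM and BGN, and OMD runs from 7.46 to 13.98 with both groups spread out.

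Lumican, which limits the thickness of collagen fibrils, was measured by 2 probes with the same order of tumors. At the brighter probe its log2 intensity was 13.28, 13.78, 14.03 and 14.10 in deleted tumors 1 to 4 and 13.26, 12.67 and 12.36 in wild-type tumors 1 to 3. The groups did not overlap, but deleted tumor 1 lay only just above wild-type tumor 1. The difference was 1.03 (SE 0.28), a 2.05-fold higher level, with a limma adjusted p of 0.510. The second LUM probe, 3894 bases away and printed above, read 11.50, 11.87, 11.99 and 12.01 against 11.28, 10.68 and 10.54. It gave a difference of 1.004 (SE 0.22, limma adjusted p = 0.467), and the same tumors marked the edge between groups. Within the slide that held both groups (deleted tumors 2 and 3, wild-type tumor 2) LUM differed by 1.24 at the brighter probe. In the sets of arrays whose files were extracted together it differed by 1.30 (session 1) and 0.47 (session 2). Session 1 held deleted tumors 2, 3 and 4 and wild-type tumor 2. Session 2 held deleted tumor 1 and wild-type tumors 1 and 3. Each session and the shared slide thus had a single tumor on 1 side, and these values rest on it.

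Biglycan, which binds collagen and growth factors in bone and whose gene is X-linked, showed the same order of groups. Its log2 intensity was 11.66, 12.21, 11.65 and 10.69 in deleted tumors and 10.58, 10.52 and 10.41 in wild-type tumors. The wild-type tumors lay close together, while deleted tumor 4 was only just above them. The difference was 1.05 (SE 0.33), or 2.07-fold, with a limma adjusted p of 0.583. Within the shared slide it was 1.41, and by session 0.999 and 1.17, each again with a single tumor on 1 side. For LUM and for BGN the exact permutation test over the 35 splits gave a two-sided p = 0.0571. This p is 2 times the smaller p of the 2 directions. With that definition no split of 7 tumors into 4 and 3 can give a lower one. With normexp and 75th percentile scaling, 0 member probes had separate groups. Of all kept probes 17.7% had separate groups in either direction under that scaling, against 8.16% before. LUM then differed by 0.71 and BGN by 0.75, while the median difference of every kept probe was 0.32. Relative to that shift the median difference of the 8 genes was 0.29. By sex label, BGN was 11.001 ± 0.81 (SD, n = 4) in FS and 11.2 ± 0.72 (SD, n = 3) in MC tumors (difference -0.24, exact permutation p = 0.743, two-sided). Under the same 75th percentile scaling this difference took the opposite sign (0.12).

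Decorin, the chondroitin or dermatan sulfate proteoglycan that coats type I collagen, was set apart by 1 tumor. At its brightest probe DCN read 15.52, 15.38, 16.30 and 15.93 in deleted tumors and 15.69, 15.65 and 13.51 in wild-type tumors. Wild-type tumor 3 was low, at -2.16 from the mean of wild-type tumors 1 and 2, and these lay within the deleted range. The second probe gave 12.60, 12.69, 13.86 and 13.09 against 13.03, 13.07 and 10.75, again with wild-type tumor 3 alone at the bottom. The difference between groups was 0.83 (SE 0.56, limma adjusted p = 0.835) and 0.78 at the second probe. Without wild-type tumor 3 it was 0.11, so the group difference of DCN rested on that tumor.

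Asporin, an inhibitor of TGF-beta and of mineral formation in periodontal ligament, was lowest in the same tumor. Its log2 intensity was 9.68, 8.99, 9.31 and 9.56 in deleted tumors and 11.41, 10.49 and 7.10 in wild-type tumors. Wild-type tumors 1 and 2 were above all deleted tumors and wild-type tumor 3 below them, at -3.85 from the mean of the other two. Only 135 kept probes had a larger range than the 4.31 of ASPN. The difference was -0.28 (SE 0.96, limma adjusted p = 0.9755), and its sign changed with processing, to 0.11 on the processed signal with 75th percentile scaling. Without wild-type tumor 3 it was -1.57 and without wild-type tumor 1 it was 0.59. A probe without a symbol between ASPN and OMD (chr1:101974557-101974616) is described in the files as periodontal ligament associated protein 1, another name of asporin. It read 11.56, 10.23, 11.26 and 11.97 in deleted and 13.50, 12.60 and 8.42 in wild-type tumors, with the same 3 tumors at its extremes.

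Osteoadherin, the keratan sulfate proteoglycan of mineralised matrix, varied most of the 8 genes. OMD read 10.998, 7.46, 9.26 and 13.98 in deleted tumors 1 to 4 and 11.13, 8.32 and 12.06 in wild-type tumors 1 to 3. Deleted tumor 4 was the highest and deleted tumor 2 the lowest, so the wild-type tumors lay inside the deleted range. The range of 6.52 is a 91.8-fold span, and 18 of the kept probes had a larger one. The size of that span depends on the processing, with its offset of 50. The processed intensities, not scaled between arrays, were 66.8 in deleted tumor 2 and 15718.6 in deleted tumor 4, a wider span. The background-corrected signal was well above background in all 7 tumors. The difference between groups was -0.08 with a 95% interval from -3.94 to 3.78 (limma adjusted p = 0.996), so these tumors allow a large difference either way. Leaving out deleted tumor 2 turned it to 0.91 and leaving out deleted tumor 4 gave -1.26.

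The gap in OMD between wild-type tumors 1 and 2 was 2.81 on the log2 scale, or 7.02-fold. In the other members the same pair differed by 0.93 (OGN), 0.92 (ASPN), 0.59 and 0.60 (LUM) and 0.17 (PRELP), and by -0.06 to 0.05 at the DCN, BGN and FMOD probes. Over all kept probes the median absolute difference of this pair was 0.12. It was over 1 in either direction at 1.56% of them, and OMD was the 1 member probe past that mark. It was over 2 at 50 kept probes. Under the 4 other background corrections and scalings the OMD gap was between 3.03 and 3.30.

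**Figure D2:**
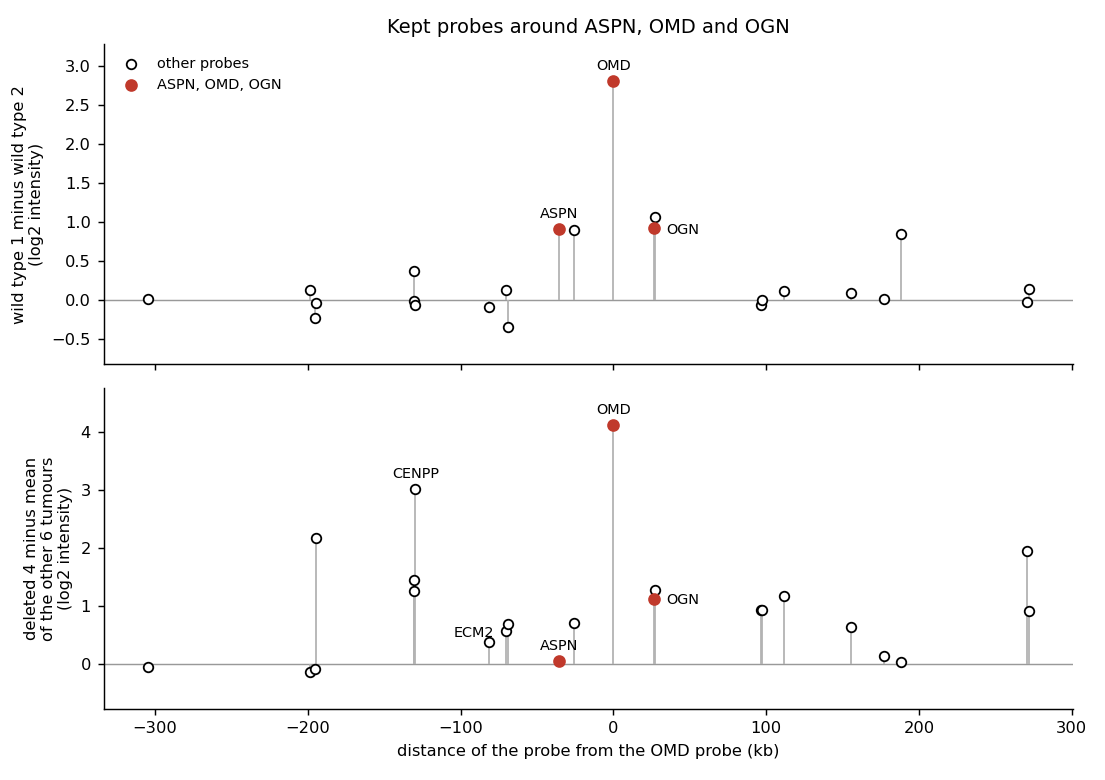
Kept probes within 300 kb of ASPN, OMD and OGN by their distance from the OMD probe (horizontal axis, kb). The upper panel gives the log2 difference of wild-type tumor 1 minus 2 and the lower panel deleted tumor 4 minus the mean of the other 6 tumors. In the upper panel OMD stands at 2.81, with ASPN, OGN and the probe next to each near 1. In the lower panel CENPP and most other probes are above 0 as well.

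Around OMD the gap of wild-type tumors 1 and 2 was largest at the proteoglycan genes. The probe described as asporin differed by 0.90 and a probe without a symbol 959 bases from the OGN probe by 1.07. Among the rest 1 probe without a symbol differed by 0.85 and no other by more than 0.38 in size. ECM2, a leucine-rich matrix gene next to ASPN, differed by 0.13, CENPP by -0.06 and the 3 IARS probes by -0.06 to 0.12. The high value of deleted tumor 4 had a wider extent. Of the 20 kept probes within 300 kb that carry no member's symbol, deleted tumor 4 was the highest tumor on 15, or 75%, against 18.5% of all kept probes. CENPP, a centromere protein gene, read 13.73 in deleted tumor 4 and 10.19 to 11.19 in the other 6. Neighbouring probes are not independent, and the part of this regional pattern in the OMD level was not tested.

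Osteoglycin, which binds collagen and was first found in bone, is the neighbour of OMD on the other side. Its log2 intensity was 8.67, 9.54, 10.80 and 10.75 in deleted tumors and 9.90, 8.97 and 9.87 in wild-type tumors. Deleted tumor 1 was lowest and deleted tumors 3 and 4 highest, with all wild-type tumors between them. The difference was 0.36 (SE 0.57, limma adjusted p = 0.939), and it took the opposite sign with age as a covariate (-0.19). It was 0.78 without deleted tumor 1, 0.072 and 0.088 without deleted tumors 3 and 4, and 0.056 without wild-type tumor 2. By session the differences of the 3 neighbours had opposite signs, 1.39 and -1.22 for OGN, 1.91 and -0.60 for OMD and -1.21 and 0.43 for ASPN (session 1 and session 2). The session 1 values rest on wild-type tumor 2 and the session 2 values on deleted tumor 1, each alone in its group. A session effect therefore cannot be told apart from these single tumors. The probe 959 bases away read 7.76, 8.66, 9.78 and 9.98 against 9.01, 7.94 and 9.05, with the same tumors lowest and highest apart from the order of deleted tumors 3 and 4.

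Fibromodulin and PRELP, a collagen-binding pair of keratan sulfate type and of arginine- and proline-rich type, were both highest in deleted tumor 2. FMOD read 7.49, 8.78, 7.59 and 6.67 in deleted tumors and 6.92, 6.95 and 7.48 in wild-type tumors. PRELP read 7.38, 8.85, 7.96 and 6.95 against 7.05, 6.87 and 7.03. Deleted tumor 4 was the lowest of all 7 tumors in FMOD and lay within the wild-type range in PRELP, so the groups overlapped in both genes. The difference was 0.52 for FMOD (SE 0.47, limma adjusted p = 0.895) and 0.80 for PRELP (SE 0.43, limma adjusted p = 0.762). Both FMOD probes that remain were dim, well above background on 5 and 6 arrays, with differences of 0.31 and 0.25 and deleted tumor 2 again highest. Without deleted tumor 4, the brightest FMOD probe, 1 dim FMOD probe and PRELP also had separate groups, 6 member probes in all. Without that tumor 15.5% of all kept probes had separate groups in either direction, against 8.16% with it, and FMOD differed by 0.84. Without deleted tumor 2, FMOD differed by 0.14 and PRELP by 0.45.

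**Figure D3:**
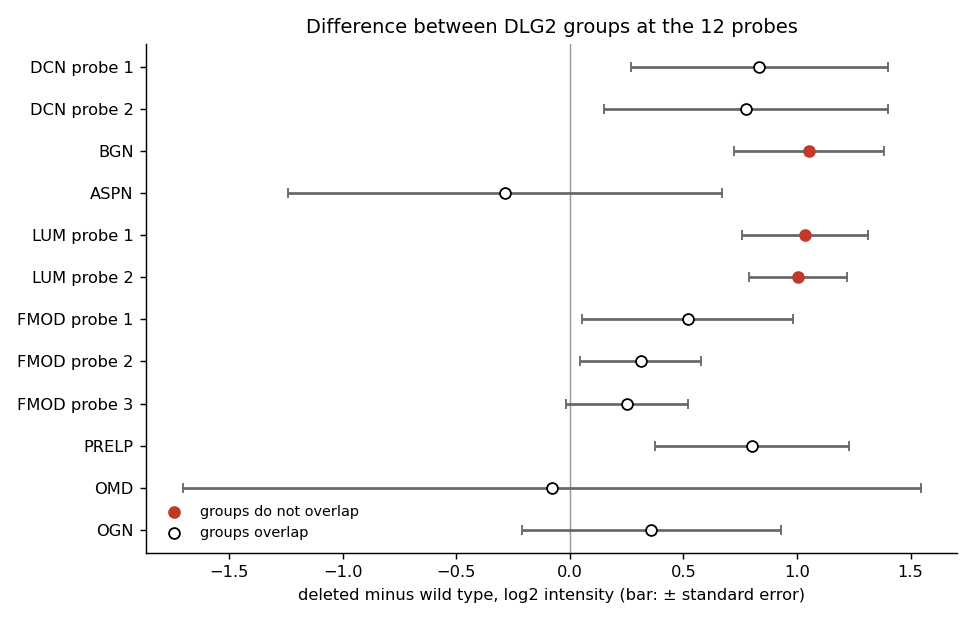
Difference of mean log2 intensity, deleted minus wild type (horizontal axis), at the 12 probes, with ± standard error from limma. Filled red points are the 3 probes on which the groups do not overlap. LUM and BGN lie near 1, while OMD has the widest bar (SE 1.62) around -0.08.

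Across the 7 tumors the 8 genes did not follow 1 common profile. Of the 28 pairs, 16 had a positive and 12 a negative Pearson r. By exact permutation 4 pairs had an unadjusted p below 0.05, and 0 had an adjusted p below 0.05 over the 28 pairs. FMOD and PRELP gave r = 0.93 (exact permutation p = 0.00556, adjusted 0.156) and rho = 0.82 (exact permutation p = 0.0341, adjusted 0.613). Without deleted tumors 2 and 4, the farthest from the median of FMOD, r was 0.72. Both genes were dim in most tumors, which limits what their correlation shows. BGN and PRELP, on different chromosomes, gave r = 0.91 (exact permutation p = 0.0123, adjusted 0.172) and rho = 0.79 (exact permutation p = 0.0480, adjusted 0.613). Without deleted tumors 1 and 2, the farthest from the median of BGN, r was 0.96. That value rests on deleted tumor 3 (BGN 11.65, PRELP 7.96). The other tumors left lay at 10.41 to 10.69 in BGN and 6.87 to 7.05 in PRELP, where PRELP is dim. DCN and LUM gave r = 0.74 (exact permutation p = 0.0496, adjusted 0.347) and rho = 0.64 (exact permutation p = 0.139, adjusted 0.648). Without deleted tumor 3 and wild-type tumor 3 r was 0.23, so that relation rested on those tumors. The 5 pairs of genome neighbours had a median r of 0.39, between -0.15 and 0.93, and the 23 other pairs a median of 0.045, between -0.65 and 0.91. OMD had a negative r with 5 of the 7 other genes and r = 0.39 with its neighbour OGN.

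**Figure D4:**
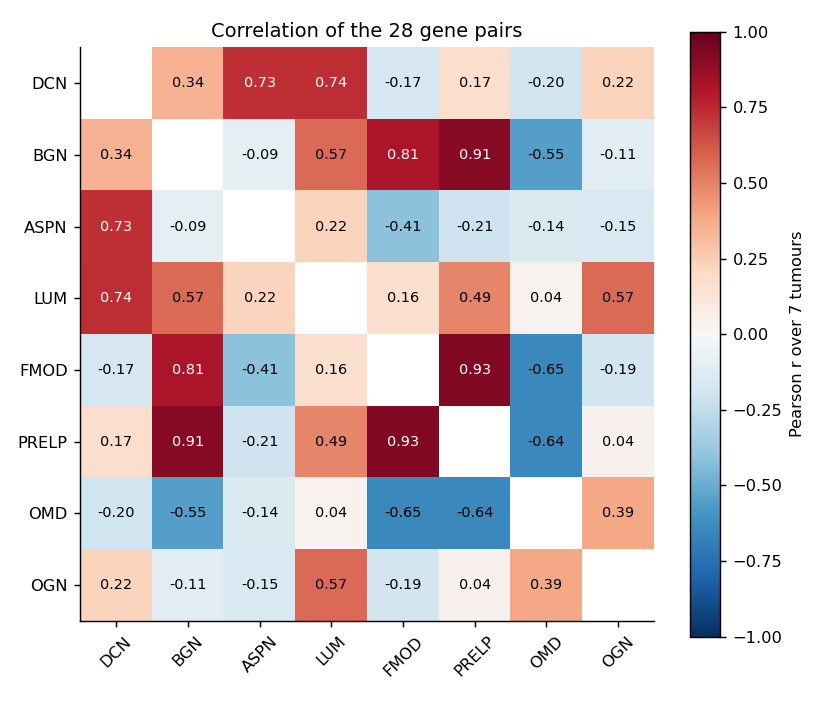
Pearson r over the 7 tumors for each of the 28 gene pairs, from -1 (blue) to 1 (red). FMOD, PRELP and BGN form the reddest block, with r of 0.81 to 0.93, and OMD is negative with those 3 genes.

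For each gene the 3 other genes with the most similar profile were taken by the root mean square (RMS) difference of centred log2 values over the 7 tumors. For OMD they were ALPL, the alkaline phosphatase of mineralising osteoblasts (RMS 1.09), CDH2, an osteoblast cadherin (1.12), and FAM189A2 (1.17). ALPL read 14.9, 12.5, 12.8 and 16.6 in deleted and 15.4, 14.6 and 16.4 in wild-type tumors, highest in deleted tumor 4 and lowest in deleted tumors 2 and 3. In wild-type tumor 2, where OMD was second lowest, ALPL was above both of these. Since OMD itself had an RMS of 2.09 about its mean, these likenesses are loose. For ASPN they were AQP5, a water channel (0.41), PTGES, which makes prostaglandin E (0.47), and PRRX2, a limb mesenchyme homeobox gene (0.53). All of these were lowest in wild-type tumor 3, and PTGES and PRRX2 are neighbours at chr9:57426817-57426876 and chr9:57437537-57437596. For FMOD they were PSMD5, RAB14 and FBXW2 (0.15 to 0.20), and for PRELP POLE3, SEC61B and PGR (0.17 to 0.23). Of these 6 genes 5 lie on chromosome 11, which holds 836 of 32233 kept probes with a value in every tumor, and not on chromosome 38 where FMOD and PRELP lie. The probes of PSMD5, RAB14 and FBXW2 are close together, starting at chr11:76886420, chr11:77184911 and chr11:76853791. These genes are therefore not independent observations. The search ran over 4042 named genes with a range of at least 1, and their share on chromosome 11 was not counted.

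For BGN they were MEDAG, POP4 and WISP2 (0.16 to 0.18), and WISP2 is a matrix signal of mesenchymal cells. For LUM they were CXCL12, a chemokine of stromal cells (0.28), TMEM64 and FIBP. For DCN they were SGSH, a lysosomal enzyme that breaks down heparan sulfate (0.35), NFIX and LRIG3, and for OGN FILIP1L, CERCAM and FXYD1 (0.31 to 0.38). In no case was another member the closest of the 4042 genes searched. Only 6 genes were nearer to FMOD than PRELP was, but 842 were nearer to OMD than OGN, its nearest member.

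**Figure D5:**
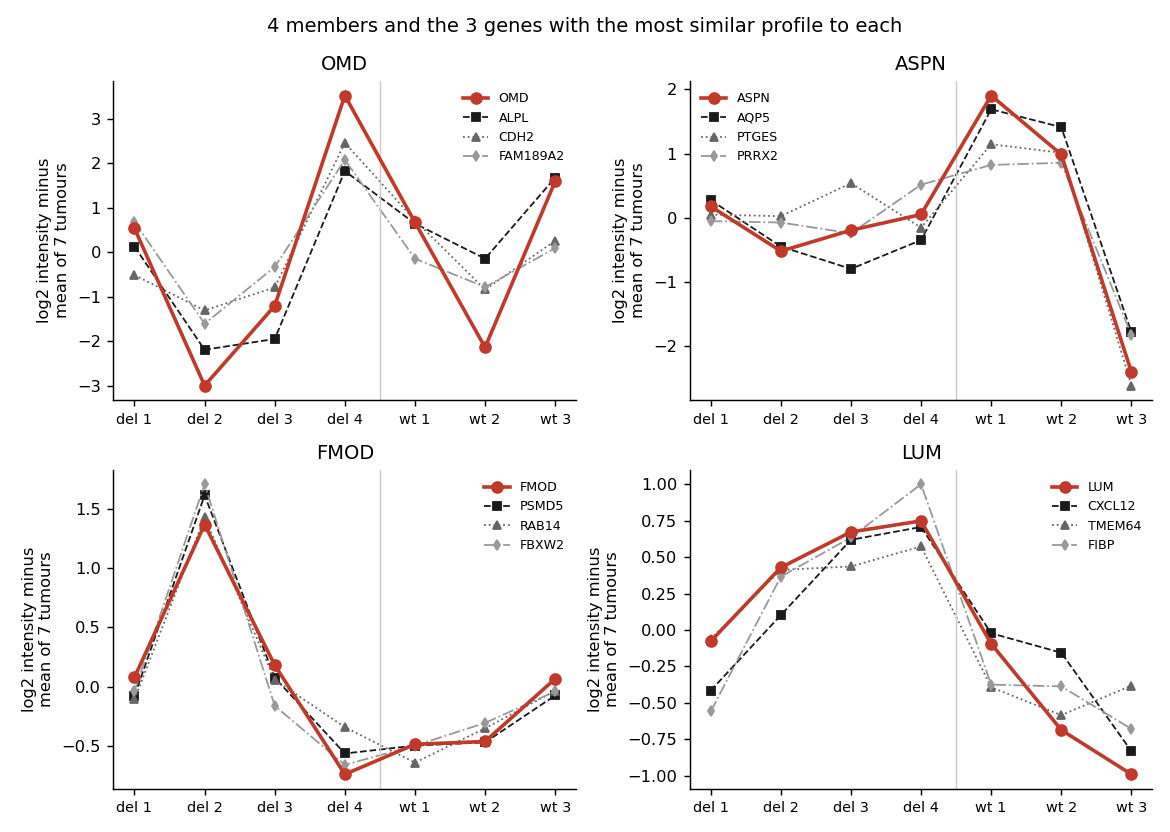
Log2 intensity minus the mean of the 7 tumors (vertical axis) for OMD, ASPN, FMOD and LUM (red) and the 3 genes most similar to each (grey and black), over deleted tumors 1 to 4 and wild-type tumors 1 to 3. FMOD and its 3 genes peak in deleted tumor 2, ASPN and its 3 genes drop in wild-type tumor 3, and OMD and ALPL are both low in deleted tumors 2 and 3.

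The genes around the proteoglycans in the pathway were counted next, and 0 of them were called. Of 25 measured genes that build or sulfate the sugar chains, 18 were higher and 7 lower in deleted tumors, with a median difference of 0.10. The smallest p values were those of CHST7, a sulfotransferase (0.55, SE 0.14, limma adjusted p = 0.503), and B4GALT4, which extends keratan sulfate (0.30, SE 0.12). CHST7 was the 1 gene of the 25 with separate groups, near the 3.93% of all kept probes that had them with deleted tumors higher. Of 9 fibrillar and fibril-associated collagen genes, the partners of these proteins, 6 were higher and 3 lower (median 0.20). COL2A1 of cartilage (3.39, SE 1.86) and COL11A2 (0.84) had the smallest p, while COL1A1 differed by -0.12 and COL1A2 by -0.14. COL3A1 was lowest in wild-type tumor 3 (11.92, against 13.91 to 16.30 in the other 6), the tumor lowest in DCN and ASPN.

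Of 8 other measured genes with leucine-rich repeats, from this family or related to it, 6 were higher and 2 lower (median 0.16), and CHAD (0.86, SE 0.50) and ECM2 (0.36) had the smallest p. KERA, beside LUM, was dim in all tumors (6.52 to 6.91), and EPYC did not pass the filter. Of the large proteoglycans HSPG2 (0.26) and ACAN (0.72) were higher and VCAN lower (-0.32). All 7 proteases of the matrix cleavage list had a higher mean in deleted tumors (median difference 0.34), led by MMP2 (1.02, SE 0.56) and ADAMTS5 (0.45). Of 6 signals and receptors that bind these proteins 3 were higher and 3 lower, with TGFB1 at -0.58 (SE 0.44) and TGFB2 at -0.54.

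Marker lists of cell types were set beside the members, and 0 of their genes were called. Osteoblast markers, of which 5 of 10 were measured, were lower in deleted tumors for 4 genes and higher for 1 (median -0.82, BGLAP -1.45 and PHEX -0.82 first). Their summed level ran from 12.82 to 16.65 on the log2 scale in deleted and 14.70 to 16.70 in wild-type tumors. Deleted tumors 2 and 3 were lowest, as in OMD among deleted tumors. This sum is mostly ALPL (12.54 to 16.55 in deleted and 14.58 to 16.40 in wild-type tumors), the gene already found closest to OMD. The median of the centred values of the osteoblast markers was 0.70 in wild-type tumor 1 and -0.79 in wild-type tumor 2, the pair that differed in OMD. Osteoclast markers (5 of 7 measured, 4 lower and 1 higher, CTSK -1.35 and ATP6V0D2 -1.55) had a summed level of 13.38 to 16.09 in deleted and 14.98 to 17.80 in wild-type tumors. The top value belonged to wild-type tumor 3, the tumor low in DCN, ASPN and LUM, where ACP5 read 14.35. Their part in the levels of these members was not tested.

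Cartilage markers (9 of 11 measured, all with a higher mean in deleted tumors, median 0.78, COL2A1 and SOX9 first) had a summed level of 11.79 to 15.86 in deleted and 11.51 to 13.97 in wild-type tumors. Deleted tumors 2 and 3, which were highest in PRELP, had median centred values of 2.44 and 1.27. Deleted tumors 1 and 4 had -0.55 and -0.86, against -0.78 to 0.40 in wild-type tumors. Adipocyte markers (5 of 5 measured, all with a higher mean in deleted tumors, LPL 1.09 and ADIPOQ 1.64 first) had a median centred value of 3.12 in deleted tumor 4, against -0.61 to -0.28 in the other 6. The list was not uniform: LEP was lowest in deleted tumor 4 (7.96, against 8.00 to 8.26), and LPL also read 8.68 in deleted tumor 3. LPL was the 1 gene of the 5 with separate groups, found with deleted tumors higher on 3.93% of all kept probes. Deleted tumor 4 is the tumor with the highest OMD and, among deleted tumors, the lowest BGN, FMOD and PRELP. Their part in these levels was not tested either.

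The fibroblast and tendon list had 4 genes higher and 4 lower (median 0.03, PDGFRA 0.72 and FAP -0.72 first). All 6 endothelial genes (median 0.43, VWF 0.59 and PECAM1 1.07 first) and all 4 perivascular genes (median 0.40, MYH11 0.47 and PDGFRB 0.45 first) had a higher mean in deleted tumors. The groups overlapped in the median centred value of both lists. For the endothelial list deleted tumors 1 and 2 (-0.11 and -0.05) lay below wild-type tumor 3 (-0.02). For the perivascular list deleted tumor 2 was the lowest of all tumors (-0.33). The skeletal muscle list had 4 higher and 3 lower (median 0.02, TNNT3 0.32 and MYL1 0.18 first). Of 10 leukocyte genes 5 were higher and 5 lower, and 4 had separate groups, all higher in deleted tumors, with CD3D (1.98, SE 0.37) and MS4A1 (0.30) first. Over all kept probes 3.93% had separate groups with deleted tumors higher. MS4A1 was dim in every tumor (6.28 to 6.75) and well above background on only 3 arrays, which limits what its difference shows. The 4 leukocyte genes had the same order of groups as LUM and BGN, and their part in it was not tested.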

How the data were processed

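The authors hybridised Cy3-labelled RNA of 7 canine primary osteosarcomas to a 1-color Agilent Canine V2 array. Per the file headers, the deposited values are the output of Agilent Feature Extraction 10.7.3.1: mean spot intensity and local background intensity on a linear scale, and a processed intensity. For their own tests the authors used RMA normalization and corrected for a batch that is not given in the sources used here. Groups came from the labels, whose numbers pair nothing. Members and gene lists were chosen with earlier results of these data known.

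Mean intensity was corrected with the median background by normexp (offset 50, limma 3.58.1, R 4.3.3), quantile-normalized and put on the log2 scale. Control spots were dropped, as were 144 outlier-marked values, and replicate spots were averaged. Probes well above background on at least 3 arrays were kept. Symbols were those of the files, and RefSeq (assembly UU_Cfam_GSD_1.0) supplied one for 1858 more probes. Each gene was read from its probe with the highest mean. Groups were compared with limma (lmFit and eBayes, two-sided, no covariate) over all kept probes, with Benjamini-Hochberg adjustment and the threshold the methods name. Exact permutation tests used scipy 1.17.1. Named were all members, the 3 genes most similar to each among genes with a range of at least 1, and the 2 genes of each list with the smallest p. Levels of different probes were not set against each other, except in the summed level of a marker list. That is the log2 of the summed linear intensities of its genes, so the brightest genes weigh most. Per array 30277 to 34531 probes were well above background and 0 spots were saturated. The number of arrays limits the precision. Alternatives were other background corrections, scalings and filters, other tests, slide, session, sex label or age in the fit, 1 value for wild-type tumors 1 and 2, and each tumor left out. The computations were tested on simulated data. The erythroid list had 0 kept genes and was not used.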

Additional observations from a re-analysis of the deposited data

Results flagged for a closer look

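In the deleted group, 12 probes were checked for a tumor far from the other 3, and on 0 of them was the gap to the nearest tumor, as a share of the group's range, above Dixon's 95% critical value. The wild-type group was not checked in this way, and wild-type tumor 3 lay apart in DCN and ASPN, as given above.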

How the results depend on the processing

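In all, 302 of 329 recomputed values were labelled the same as in the main run, and 0 member probes were called under any setting run. For a difference or a correlation, the same meant an unchanged sign and side of the threshold. For a count it meant a similar number, and for the median difference and the OMD gap a change within the spread of the tumors. Changes of filter and some of the tests cannot alter a difference, so the 302 do not measure how stable the values are. Separate groups were found on 0 member probes with normexp and 75th percentile scaling and on 3 to 6 with 1 tumor left out, where 6 were without deleted tumor 4. Of all kept probes 17.7% and 12.3% to 19.1% had separate groups under these settings, 15.5% without deleted tumor 4. The median difference over the 8 genes moved to 1.22 with slide as a fixed block and 1.17 with age as a covariate. It lay between 0.59 and 0.85 with 1 tumor left out. Only 1 slide held several arrays, so the slide fit compares just deleted tumors 2 and 3 with wild-type tumor 2. Its values are those given above within the shared slide, and this holds for OMD below too. The ASPN difference, -1.57 to 0.59 with 1 tumor left out, was reversed to 0.11 and 0.10 on the processed signal (75th percentile and quantile scaling), 1.29 with age, 0.36 with wild-type tumors 1 and 2 averaged, and 0.59 and 0.13 without wild-type tumors 1 and 2. The OMD difference, -1.26 to 0.91 with 1 left out, was reversed to 0.038 with slide, 0.73 with session, and 0.91, 0.31, 0.24 and 0.70 without deleted tumors 2 and 3 and wild-type tumors 1 and 3. The OGN difference was -0.19 with age and 0.056 to 0.78 with 1 tumor left out, and BGN by sex label 0.12 with normexp and 75th percentile scaling. The correlation of ASPN and OMD ran from -0.30 to 0.18 (without wild-type tumor 3), and that of DCN and LUM from 0.49 to 0.89 with 1 tumor left out. Its exact p was then above 0.05 unless deleted tumor 2 was the one left out. The causes were not tested.

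The dim FMOD probes lie near background, which limits what their differences show. The brightest FMOD probe (6.67 to 8.78) and PRELP (6.87 to 8.85) were also low, and the size of their differences depended on the processing. PRELP differed by 0.80 in the main run and by 1.17 to 1.57 under the other background corrections and scalings. FMOD differed by 0.52 and by 0.73 to 0.98. The 0.98 came with normexp and 75th percentile scaling, where the median of all kept probes was 0.32. No paired analysis was possible because the tumor numbers name tumors only.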

Other observations

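A probe without a symbol 5046 bases beyond the PRELP probe (chr38:3212146-3212205) spanned 6.31 on the log2 scale, more than PRELP with 1.98. It read 12.95, 15.02, 14.25 and 8.71 in deleted and 11.35, 10.76 and 11.79 in wild-type tumors, with deleted tumors 2 and 3 highest and 4 lowest, the same tumors as in PRELP within the deleted group. Which transcript it measures was not examined. BTG2, a growth-arrest gene 31022 bases from FMOD, had separate groups on both of its probes, with differences of 0.81 and 1.06 (limma adjusted p = 0.503 and 0.434). These probes start at chr38:3072806 and chr38:3072808 and overlap almost fully, so they are not independent measures. Of all kept probes 3.93% had separate groups with deleted tumors higher. Of 18 kept probes within 300 kb of FMOD and PRELP that carry no member's symbol, deleted tumor 2 was highest on 11, or 61.1%, against 16.8% of all kept probes. BTG2, OPTC and ZC3H11A each have several probes among them, and neighbouring probes are not independent.

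The effect of DLG2 status was compared between sex labels in limma with a product term, and 0 of 32311 probes were called, with 2573 at an unadjusted p below 0.05. Among member probes 3 had an unadjusted p below 0.05, ASPN and both DCN probes, with a smallest limma adjusted p of 0.350. Only 1 wild-type tumor, number 3, has the label MC, so the term rests on that tumor.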
